A study of Mus musculus and Rattus norvegicus with 96 samples.

Results

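Frozen liver and frozen lung of male rats, both from vehicle controls, were measured with the TempO-Seq s1500+ rat panel, in which a pair of detector oligos is annealed next to each other on a target RNA, ligated, amplified and counted by sequencing. The liver was from F344 rats (6 libraries, numbered 67 to 72) and the lung from WKY rats (5 libraries, numbered 49 to 53). These were chosen as all libraries labelled frozen rat liver or frozen rat lung, and they make up 11 of the 96 libraries of the series, of which 36 are rat. A sixth frozen lung library (54) held 12 counts in all and was left out. In addition, 12 libraries labelled with the same tissues and strains that were frozen and then fixed in formalin before embedding in paraffin (FR > FFPE, 6 liver and 6 lung) were used for one comparison at the end. The labels do not give the age of the rats, nor whether each library came from a separate animal, so p-values measure the spread between these libraries, which may be technical. Tissue, strain and deposited table changed together, and a difference between liver and lung cannot be told apart from a difference between F344 and WKY or between the tables. One pair of MHC class I genes had no count in the 5 frozen lung libraries and was counted in all 6 FR > FFPE lung libraries of the same labelled strain, with values given at the end. In bulk tissue, fewer cells of a type and less RNA per cell cannot be told apart either.

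The liver makes most of the proteins of blood plasma, clears drugs and metabolites through cytochrome P450 and conjugating enzymes, disposes of nitrogen as urea, and supplies glucose and ketone bodies. Hepatocytes do most of this work, under transcription factors such as HNF4A. The lung is built for gas exchange from thin type I and surfactant-secreting type II epithelial cells laid against a dense capillary bed, held in a matrix of fibroblasts and smooth muscle and patrolled by macrophages and lymphocytes. Gene families in which one member serves the liver and another serves most other tissues, such as the glucose transporters and glycogen phosphorylases, are a classic mark of hepatocytes.

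Total counts were 3040915 to 3970187 per liver library (median 3502450) and 2013607 to 2505947 per lung library (median 2184893), with no overlap (two-sided exact permutation test, p = 0.00216, the smallest that 6 against 5 libraries allow). Of 28756 genes listed in both tables, 2574 had a count in at least 1 of the 11 libraries, and a library detected 2134 to 2238 genes in liver and 2261 to 2301 in lung (exact permutation test, p = 0.00433). As deposited, the 10 genes with the most counts took 48.5% ± 1.91 (SD, n = 6) of a liver library and 30.6% ± 0.54 (n = 5) of a lung library. Levels are given as CPM, a gene's counts over the scaled size of the library, times 1000000. TMM scaling sets library sizes so that a trimmed mean of the genes' log2 ratios is 0. Its factors were 0.493 to 0.532 in liver and 2.15 to 2.29 in lung. CPM therefore lie above a gene's share of the counts in liver and below it in lung. A mean is followed by its SD (n = 6 liver, n = 5 lung). A log2 fold change, which is liver over lung, is followed by an approximate standard error. This error is the size of the log2 fold change over the square root of the test's F value. Where a tissue had counts near 0, the log2 fold change and this error depend on the small prior count of the fit. Each probe pair has its own efficiency, so levels are compared between tissues and not between genes.

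Counts of 12 genes, all of them plasma proteins of the liver, stood apart in form. Their whole-number counts were multiples of 1 fixed factor in each of the 23 frozen and FR > FFPE libraries, where the gene had whole-number counts. The factor was 9 for Alb, 7 for Apoa1, Apoc1 and Apoh, 6 for Fetub, 4 for Fga and Fgg, 3 for Gc, Mug1 and Serpina1, and 2 for Tf and Ttr. In the 5 lung libraries Alb had 36, 54, 0, 108 and 9 counts. The 12 genes took 46.0% ± 2.04 of the liver counts as deposited and 13.9% ± 0.93 after division by the factor. The 10 genes with the most counts then took 25.1% ± 0.9 of a liver library and 30.7% ± 0.54 of a lung library. Their greater share in liver was thus lost with the multiples. After division the liver totals were 1911888 to 2465965 and the lung totals 2006108 to 2497773, so that the libraries of both tissues overlapped in depth. What made the multiples is not given in the sources used here, so levels and shares of these 12 genes are given as deposited. A factor shared by both tissues cancels in their fold changes.

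Of 2003 genes with enough counts to be tested, 1298 (64.8%) were called different between frozen liver and lung by edgeR's quasi-likelihood test (adjusted p under 0.05 and at least 2-fold). These were 641 genes higher in liver (32.0%) and 657 higher in lung (32.8%), and the median log2 fold change over all tested genes was −0.08. By TMM the liver-high genes had the greater range of fold changes. In liver 332 genes were at least 10-fold higher, 183 at least 100-fold and 110 at least 1000-fold, whereas in lung 208 were at least 10-fold higher, 26 at least 100-fold and 7 at least 1000-fold. These steps were not tested in other scalings. A gene without a count in a tissue enters at a bound, which rests on 0.279 CPM in liver and 0.12 CPM in lung. Bounds of lung-high genes are therefore lower. The values of the 2 tissues did not overlap for 1511 genes (75.4%), 735 of them higher in liver. No count in any lung library was found for 28 of the liver-high genes, and no count in any liver library for 11 of the lung-high genes.

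The balance of the 2 directions depended on how libraries were scaled. With library totals in place of TMM, 350 genes were called higher in liver and 1378 in lung (20.3% liver, against 49.4% with TMM), and the median of all genes moved to −2.20. With totals that left out genes over 1% of any library, the calls were 437 and 1201 (median −1.45), and with DESeq2's size factors 720 and 706 (median 0.05). Across these 4 scalings 350 genes (17.5%) remained called higher in liver and 655 (32.7%) in lung. A liver-high gene whose log2 fold change is smaller than this shift of the median is therefore high relative to the other genes of the panel, and not as a share of all counts. The plot of mean levels shows both sets. Calls within each gene list below are to be read against those of all tested genes in the same scaling, given above.

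**Figure D1:**
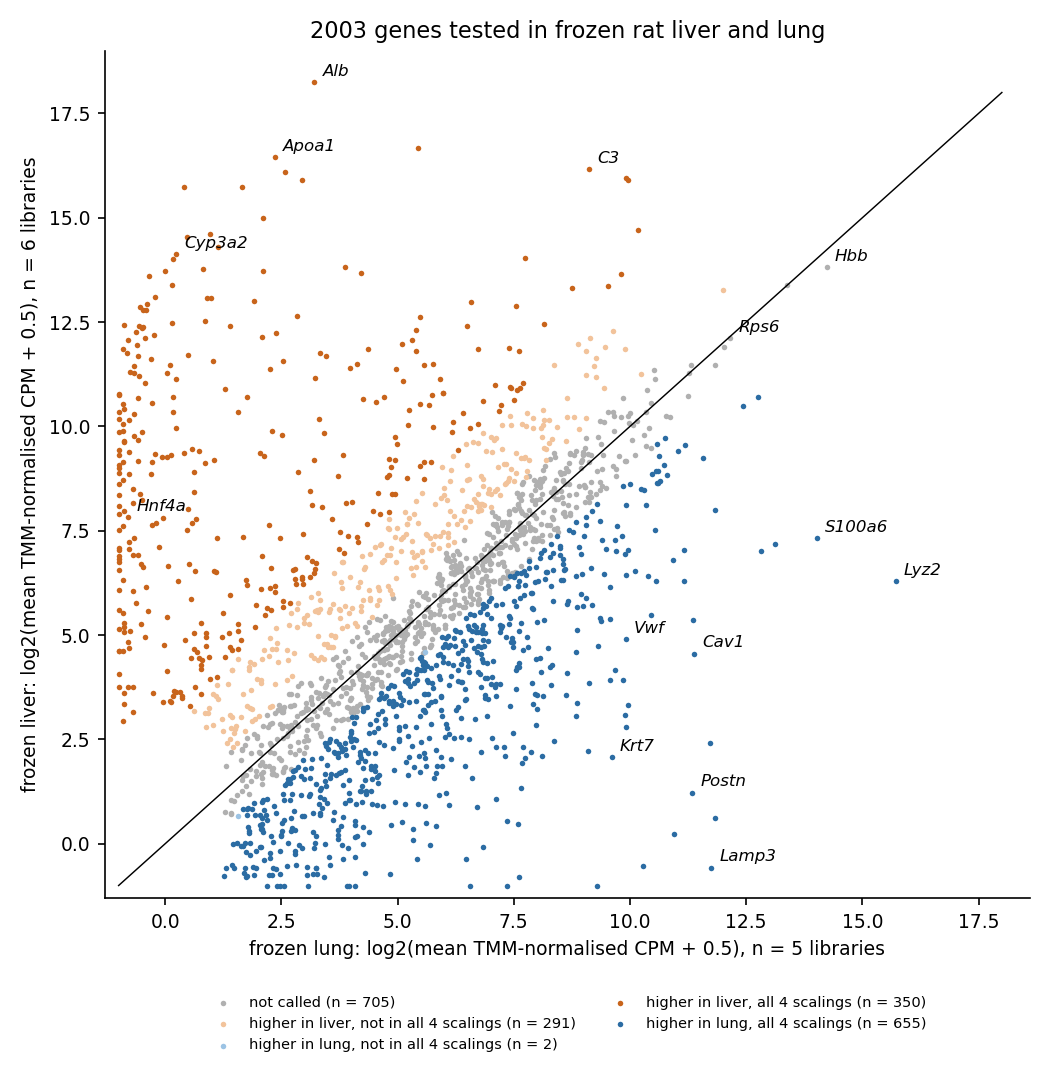
Mean TMM-normalised level of each of the 2003 tested genes in frozen liver (y axis, n = 6 libraries) against frozen lung (x axis, n = 5), both as log2(CPM + 0.5), with the line of equal levels. Dark orange points (350 genes) and dark blue points (655) were called in all 4 scalings, pale orange points (291) were called higher in liver in some only, and the liver-high genes reach far to the left edge, where lung counts were 0 or near it.

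The liver-high genes furthest apart included enzymes and plasma carriers, and the lung-high ones were of several kinds. Hao2, a peroxisomal hydroxy acid oxidase, had 1439, 1690.2 and 2154 CPM in liver (lowest, median, highest) and no count in lung, at least 14227-fold higher. Serpina6, the corticosteroid-binding globulin, was at least 9862-fold higher in liver, likewise without a lung count. Ambp, the precursor of alpha-1-microglobulin and bikunin, had 7076 ± 585 CPM in liver and 0.218 ± 0.396 in lung (14.86 ± 0.30), and RGD1561812 had 5394 ± 689.8 and 0.182 ± 0.408 CPM (14.73 ± 0.33). On the lung side Neb, the muscle protein nebulin, had 224, 177, 192, 193 and 196 CPM in the 5 lung libraries and 1 count in all liver libraries together, a lung to liver ratio of 2101 (95% counting interval 377 to 83018). AABR07060872.1 had 4.86 ± 2.19 CPM in liver and 3205, 2073, 3812, 3786 and 4105 CPM in lung (−9.44 ± 0.25). Scn3b, a sodium channel subunit, was at least 54.5-fold higher in lung, and Clec4a3, a lectin-like receptor of myeloid cells, at least 52.1-fold, since liver had no count of either. S100a6, a calcium-binding protein, took 3.68% ± 0.40 of lung counts, at 16565 ± 2133 CPM against 159 ± 61.2 in liver (−6.71 ± 0.25). At the other end, Lrp10, a receptor of the LDL receptor family, had 126 ± 9.51 CPM in liver and 126 ± 6.44 in lung, and Parp14, an ADP-ribosyltransferase, 140.5 ± 14.6 and 141 ± 18.8 CPM. Both overlapped between tissues and were among the 5 genes nearest to equal by TMM, though with library totals their log2 fold changes were −2.12 and −2.12.

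Plasma proteins gave the clearest split. All 38 tested genes of this list (of 43 with a count) were called higher in liver, with a median log2 fold change of 11.55 against −0.08 for all genes, and 37 held in all 4 scalings. Together they took 46.1% to 52.7% of the counts of a liver library and 0.586% to 0.685% of a lung library. Albumin, the main protein of plasma (Alb, rn6 chr14:19176277-19191864), took 16% ± 1.49 of the liver counts as deposited. Its lowest, median and highest liver levels were 260052, 316720 and 352237 CPM, and the lung libraries held 7.66, 9.46, 0, 24.6 and 1.87 CPM. No lung library came near the lowest liver library, and the log2 fold change was 15.16 ± 0.78 (adjusted p = 2.64e-12). Crp, the C-reactive protein of plasma, had 11295, 12435 and 13848 CPM in liver (lowest, median, highest) and 0.213, 0.525, 0, 0.684 and 0 CPM in lung. Its libraries did not overlap either, and the log2 fold change was 15.26 ± 0.28. Gc, the vitamin D-binding protein, had a mean of 54723 ± 2602 CPM in liver and 0.826 ± 0.643 in lung (15.93 ± 0.35). Itih2, a heavy chain of inter-alpha-trypsin inhibitor, had 1 count in all lung libraries together, and its liver to lung ratio was 93807 (95% counting interval 16837 to 3705208).

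The list was not uniform in lung. Of the 38 genes, 14 stayed under 1 CPM in lung on average and 5 exceeded 100 CPM. These 5 were Fgg, the fibrinogen gamma chain (968 ± 105 CPM in lung), Fetub, or fetuin-B (1001 ± 72.7), Cp, the copper carrier ceruloplasmin (429 ± 55.6), Serping1, the C1 inhibitor (135 ± 6.26), and Pros1, or protein S (143 ± 23.2), chosen here after their values were seen. Fgg and Fga encode chains of one protein. In liver they had 63664 ± 10777 and 70329 ± 11287 CPM. In lung Fga had 5.44 ± 2.77 CPM, so that its log2 fold change was 13.68 ± 0.36 and that of Fgg 6.04 ± 0.21. Fgg counts in lung were 1088, 841, 911, 938 and 1064 CPM in the 5 libraries, a narrow range. Pros1 was the exception to scaling, with 1.88 ± 0.14 by TMM and −0.24 by library totals.

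Of 30 coagulation and complement genes 23 were called higher in liver and 6 in lung (median 4.51). The liver side held circulating factors. Prothrombin (F2) had 28680, 32337 and 38884 CPM in liver (lowest, median, highest) and 2.28 to 4.79 CPM in lung, a log2 fold change of 13.07 ± 0.25. Factor IX (F9) followed with 11.62 ± 0.17. C3, the central component of complement (rn6 chr9:9721105-9747168), had 73538 ± 11645 CPM in liver and kept 555 ± 82.3 CPM in lung (7.05 ± 0.22). C8a and C8b, which encode chains of the membrane attack complex, each had 1 count in the lung libraries together, with ratios of 23859 (95% counting interval 4282 to 942416) and 26332 (95% counting interval 4726 to 1040070). The lung side held membrane proteins and products of vessel walls. Tissue factor (F3), the receptor that starts clotting, had 4.81, 7.81 and 11.6 CPM in liver and 434, 420.2, 456, 455 and 506 CPM in lung (−5.85 ± 0.15). Thrombomodulin (Thbd), which turns thrombin against clotting, had 1.35 ± 1.01 and 104 ± 16.04 CPM (−6.18 ± 0.26). Its partner Procr, the protein C receptor, had −2.68 ± 0.15, Cd55, which shields cells from complement, had −6.99 ± 0.16, and Vwf, or von Willebrand factor of endothelium and platelets, had −5.03 ± 0.10. In all 4 scalings 17 of the 23 liver-high and all 6 lung-high genes were called.

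Cytochrome P450 genes were higher in liver for 20 of 23 tested (median 10.30, or 9.61 with genes without lung counts set to their lower bound), and 17 held in all 4 scalings. Cyp3a2, a steroid- and drug-oxidising enzyme of male rats, had 15140, 17463 and 20660 CPM in liver (lowest, median, highest) and 0, 2.10, 0, 0 and 1.25 CPM in lung. The tissues were far apart, with a log2 fold change of 14.54 ± 0.42. Cyp2c11, the male-specific steroid hydroxylase, had 3944 ± 1088 CPM in liver and 0.156 ± 0.0884 in lung (14.28 ± 0.34), and Cyp1a2, which oxidises caffeine and aromatic amines, had 10.90 ± 0.26. Cyp2e1, which oxidises ethanol, was higher in liver too (7.51 ± 0.22) but kept 17.4, 28.5, 20.4, 15.7 and 18.7 CPM in the 5 lung libraries.

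The 2 lung-high members were Cyp1b1, which oxidises steroids and polycyclic hydrocarbons outside the liver (0.762 ± 0.657 CPM in liver, 12.6 ± 4.57 in lung, −4.0036 ± 0.45), and Cyp26b1, which degrades retinoic acid (10.4 ± 5.62 and 86.4 ± 18.98, −3.10 ± 0.25). Cyp2f4, a gene of club cells in the airway, had 40.8, 47.4 and 55.98 CPM in liver and 11.1, 3.50, 23.9, 26.5 and 25.5 CPM in lung. Its log2 fold change was 1.40 ± 0.33 by TMM, which reversed to −0.72 by library totals. The electron donor of these enzymes, Por, had 2.44 to 7.69 CPM in liver and 1.70 to 5.11 CPM in lung, overlapping and not called.

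Conjugation enzymes were higher in liver for 24 of 30 and in lung for 1 (median 3.89), which became 20 and 7 with library totals. Sult1b1, a sulfotransferase of thyroid hormones and phenols, had 4859, 5501 and 5953 CPM in liver and 1 count in all lung libraries, a ratio of 137301 (95% counting interval 24643 to 5423135). Ugt2b37, a glucuronosyltransferase, had a ratio of 43706 (95% counting interval 12099 to 360899). Gsta2, a glutathione transferase of the alpha class, had 5745 ± 540.2 CPM in liver and 0.614 ± 0.437 in lung (13.14 ± 0.26). Gstp1, of the pi class, went the other way with 5.33 to 8.37 CPM in liver and 59.8, 60.6, 69.5, 69.6 and 67.9 CPM in lung (−3.24 ± 0.14). Among hepatocyte transporters 14 of 18 were called higher in liver and 4 in lung (median 8.19). Slco1b2, which takes up organic anions, had 928, 1302 and 1651 CPM in liver and no count in lung, at least 10974-fold higher. Slc10a1, the bile acid uptake carrier, had a ratio of 20943 (95% counting interval 7166 to 101555), and Abcb11, the bile salt export pump, a log2 fold change of 11.51 ± 0.19. The efflux pumps Abcb1a (−1.60 ± 0.19) and Abcc5 (−3.65 ± 0.11) were higher in lung.

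**Figure D2:**
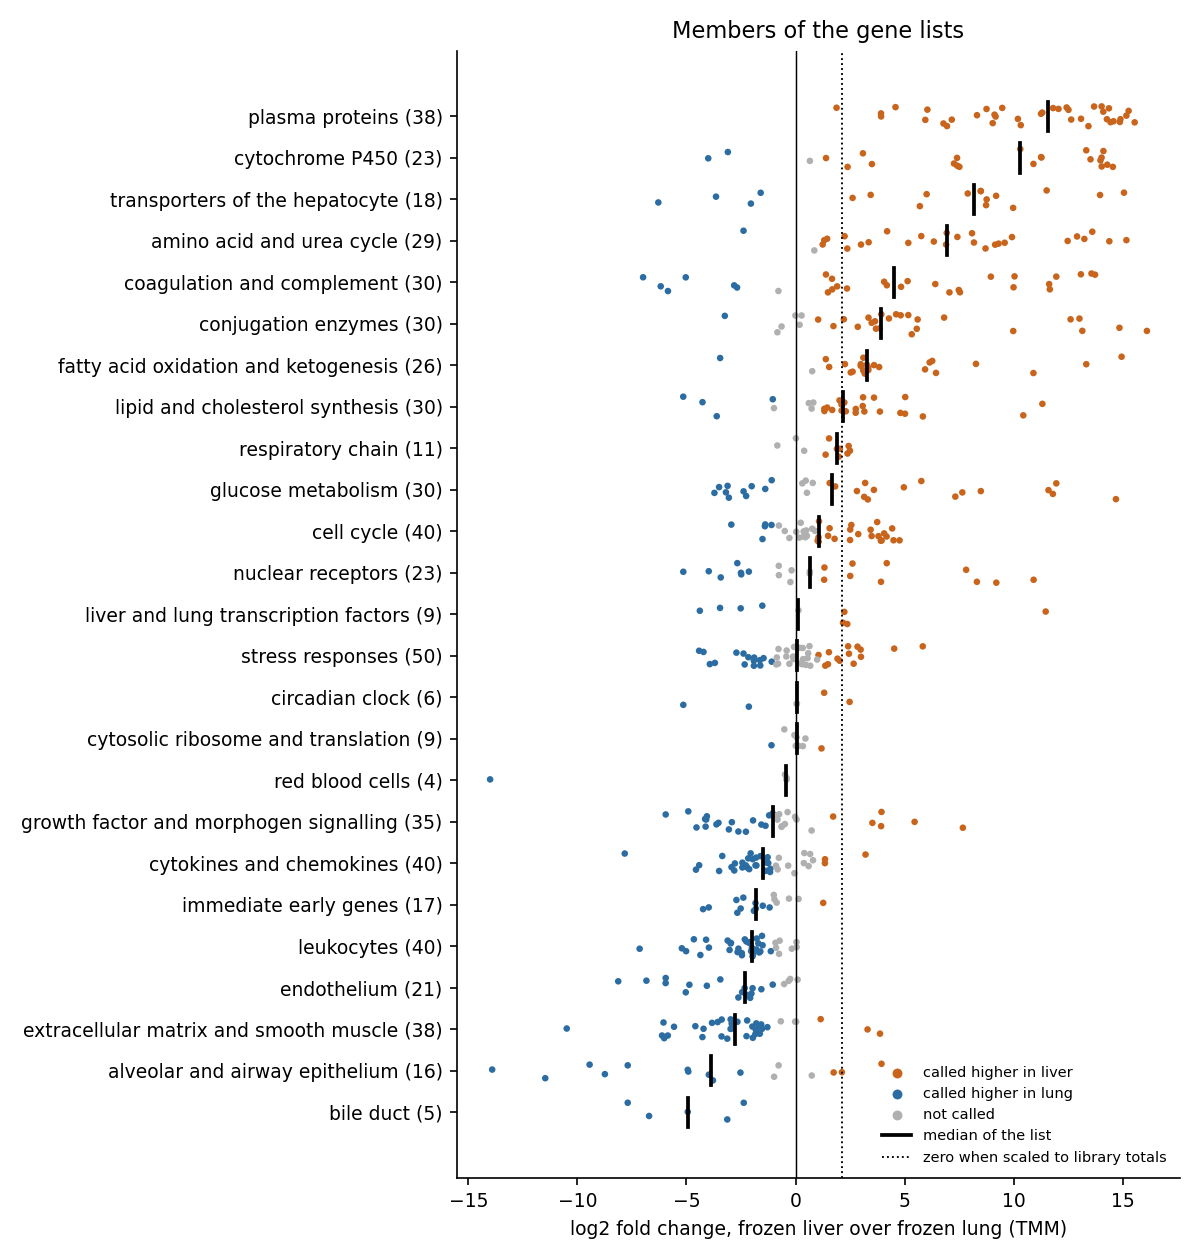
Log2 fold change of frozen liver over frozen lung (x axis, TMM scaling) for each tested member of the gene lists (rows, with the number tested), coloured by call. Black ticks are list medians, from 11.55 for plasma proteins to −4.94 for bile duct genes, and the dotted line is where 0 falls with library totals.

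Genes of amino acid breakdown and the urea cycle were higher in liver for 27 of 29 (median 6.93, 21 in all 4 scalings). Tdo2, which opens the ring of tryptophan, had 1704, 2596 and 3127 CPM in liver and 0, 0, 0, 0.456 and 0 CPM in lung, a ratio of 31828 (95% counting interval 8811 to 262814). Hpd, of tyrosine breakdown, had a log2 fold change of 12.90 ± 0.24. In the urea cycle Otc had 3028 ± 419.9 CPM in liver and 5.27 ± 1.14 in lung (9.14 ± 0.18), and Arg1, the arginase that releases urea, had 3102, 3823 and 5373 CPM in liver and 34.5, 34.5, 38.5, 30.6 and 30.3 CPM in lung (6.90 ± 0.18). Cps1, which feeds ammonia into the cycle, was low on this panel at 17.05, 23.96 and 36.2 CPM in liver and had no count in lung, at least 204-fold higher. Asns, which makes asparagine, was the only member called higher in lung, at 30.4 ± 6.12 CPM in liver and 159.7 ± 12.3 in lung (−2.39 ± 0.12). Serine synthesis, represented by Phgdh, overlapped between tissues and was not called (0.86 ± 0.25).

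Fatty acid oxidation and ketogenesis had 24 of 26 genes higher in liver (median 3.29), of which 15 held in all 4 scalings. The largest values belonged to genes nearly absent from lung, such as Fabp1, the liver fatty acid-binding protein (7451 ± 1471 and 0.186 ± 0.304 CPM, 14.94 ± 0.35), Acot12 (10.90 ± 0.17) and the peroxisome proliferator-responsive Cyp4a1 (ratio 19984 (95% counting interval 3587 to 789343)). Enzymes of beta-oxidation in mitochondria had smaller values, 3.10 ± 0.11 for Acadm and 3.33 ± 0.13 for Cpt2. Acot1, a cytosolic thioesterase, was called higher in lung at 8.58 ± 2.62 CPM against 0.707 ± 0.911 in liver.

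Lipid and cholesterol synthesis was mixed, with 22 of 30 genes higher in liver, 4 higher in lung and a median of 2.17. With library totals these became 9 and 8, with a median of 0.06. Thrsp, a regulator of lipogenesis, had 5532, 8464 and 10246 CPM in liver and 1.28, 1.58, 1.46, 3.19 and 8.72 CPM in lung (11.31 ± 0.40), and the hepatic lipase Lipc had 10.43 ± 0.23. Sqle, the squalene epoxidase of cholesterol synthesis, was higher in liver by TMM (1.32 ± 0.13) but reversed with library totals (−0.79). It was lowest in lung library 50, at 114 CPM against 172 to 191 in the other 4. Lung-high members were Lpl, the lipoprotein lipase of capillary walls (77.6 ± 15.7 CPM in liver, 1502 ± 158 in lung, −4.27 ± 0.13), Scd2 (−5.15 ± 0.23), a desaturase of tissues outside the liver, and Soat1 (−3.61 ± 0.18), which esterifies cholesterol. Fasn, the fatty acid synthase, had 8.92 to 36.1 CPM in liver and 9.15 to 14.7 CPM in lung and was not called.

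Glucose metabolism had calls in both directions. Of 30 genes 16 were called higher in liver and 10 in lung by TMM (median 1.69), the lung share near that of all genes (32.8%). With library totals 13 were called in liver and 14 in lung (median −0.43). Pck1, of gluconeogenesis, had 2269, 2971 and 5613 CPM in liver and 0 to 1.75 CPM in lung (11.79 ± 0.41), and Fbp1, in the same pathway, 7.64 ± 0.22. Aldoa, an aldolase of glycolysis, had 83.3, 92.6 and 119.7 CPM in liver and 355, 406, 431, 388 and 356 CPM in lung (−2.01 ± 0.10). All 5 lung libraries were above the highest liver library, and Aldoc, much lower in both tissues, also went with lung (−2.27 ± 0.37). Hk1, the general hexokinase, had 9.46 ± 3.66 CPM in liver and 50.04 ± 6.19 in lung (−2.38 ± 0.20). The glucose transporter Slc2a2 was higher in liver (8.49 ± 0.18) and Slc2a3 higher in lung (−3.12 ± 0.23). Slc2a1 was called in lung as well (−1.10 ± 0.18), a call that was lost without liver library 68. Glycogen phosphorylase of liver (Pygl) had 3.31 ± 0.10 and that of muscle (Pygm) −3.51 ± 0.23. Pklr, the pyruvate kinase of liver, had no count in lung and was at least 999-fold higher in liver, where library 70 had 254 CPM and the other 5 had 78.5 to 109 CPM. For Slc2a2 against Slc2a3 and Pygl against Pygm the direction was the same in all 4 scalings.

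**Figure D3:**
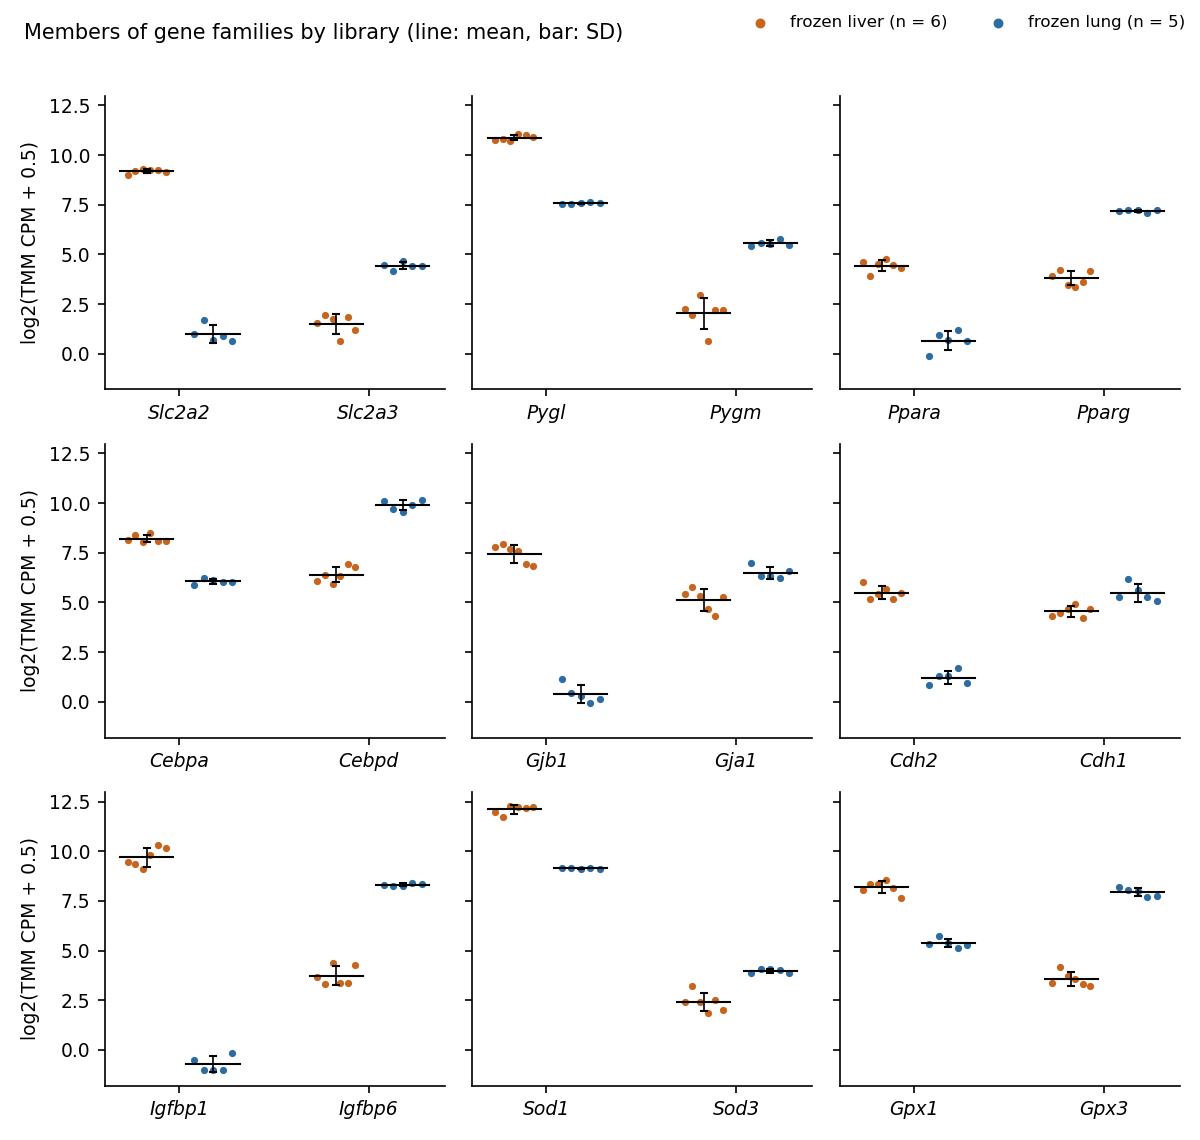
Levels of 9 pairs of related genes in each frozen liver (orange, n = 6) and frozen lung (blue, n = 5) library as log2(TMM-normalised CPM + 0.5), with lines at the mean and bars for the SD of log2 values. The pairs were picked with the results known, each with a gene called higher in liver by TMM first. The second gene was called higher in lung by TMM, save Cdh1, so this order is no result. Cdh1 was higher in lung without overlap but just short of 2-fold. With library totals Cebpa, Sod1 and Gpx1 were not called higher in liver, and Cdh1 was called higher in lung.

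Of 17 gene families with 2 or more tested members, 12 had calls in both directions by TMM and 8 in all 4 scalings. Pairs of members were not tested against each other. Of all tested genes 32.0% were called higher in liver and 32.8% in lung by TMM, and 17.5% and 32.7% in all 4 scalings. Families of unrelated genes would therefore often hold both directions. Whether these families, chosen with earlier results known, did so more often was not tested. Connexins gave Gjb1, the gap junction protein of hepatocytes (182 ± 53.3 and 0.877 ± 0.486 CPM, 7.64 ± 0.30), and Gja1 (36.7 ± 12.9 and 91.5 ± 20.05 CPM, −1.33 ± 0.20). Cadherin 2 (Cdh2) was higher in liver (4.58 ± 0.23), and cadherin 1 (Cdh1), with 18.1 to 29.8 CPM in liver and 32.8 to 72.3 CPM in lung, fell just short of 2-fold (−0.99 ± 0.20). Insulin-like growth factor-binding proteins divided into Igfbp1 (ratio 7261 (95% counting interval 2485 to 35212)), which the liver secretes in fasting, and Igfbp6 (−4.54 ± 0.16) and Igfbp7 (−1.95 ± 0.11) on the lung side, whereas Igfbp3 was higher in liver by TMM (1.72 ± 0.18) and reversed with library totals (−0.39). Of the flavin monooxygenases, Fmo5 had 4.28 ± 0.15. Fmo1 had 496 to 895 CPM in liver and 1075 to 1699 CPM in lung, without overlap. It was short of 2-fold by TMM and so not called (−0.83 ± 0.16), but was called higher in lung with library totals. Superoxide dismutase 1 (Sod1) was higher in liver by TMM (2.98 ± 0.12), a call lost with library totals (0.87), and the extracellular form Sod3 was higher in lung (−1.64 ± 0.21). Of the glutathione peroxidases Gpx1 was higher in liver by TMM (2.84 ± 0.15), again lost with library totals (0.73), and Gpx2 (−3.93 ± 0.18) and Gpx3 (−4.42 ± 0.15) were higher in lung. All 3 tested D-type cyclins were called higher in lung.

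Nuclear receptors were called higher in liver for 10 of 23 and in lung for 7 by TMM (median 0.65), not far from the shares of all genes (32.0% and 32.8%). With library totals 6 were called higher in liver and 13 in lung, a shift shared by all genes (350 and 1378 of 2003). In all 4 scalings 6 liver and 7 lung calls held. Hnf4a (rn6 chr3:159902441-159965004), which sets up the hepatocyte programme, had 157, 229 and 268 CPM in liver and 0.213, 0, 0.182, 0 and 0 CPM in lung, a ratio of 2858 (95% counting interval 791 to 23606). The xenobiotic sensors Nr1i2, or PXR (138 ± 18.1 and 0.408 ± 0.165 CPM, 8.31 ± 0.21), and Nr1i3, or CAR (ratio 1148 (95% counting interval 206 to 45369)), were likewise liver genes. Ppara, which drives fatty acid oxidation, had 21.4 ± 4.06 and 1.16 ± 0.514 CPM (4.18 ± 0.25), whereas Pparg, known from fat cells and alveolar macrophages, had 9.94, 13.3 and 18 CPM in liver and 147, 149, 148, 137 and 149 CPM in lung (−3.43 ± 0.14). Ppard overlapped and was not called (0.65 ± 0.27). Among C/EBP factors Cebpa was higher in liver (2.17 ± 0.11 by TMM, 0.06 by library totals), Cebpb was not called (0.13 ± 0.12) and Cebpd was higher in lung (86.9 ± 24.5 and 958 ± 163 CPM, −3.46 ± 0.17). The lung also had the higher levels of Hoxa5, a positional factor of lung mesenchyme (−4.39 ± 0.30), and of Gata2 and Gata3 of blood and endothelial lineages (−5.65 ± 0.28 and −5.02 ± 0.29). Onecut1, a hepatocyte factor, had no count in lung but 46.3 to 236 CPM across the liver libraries.

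Mitochondrial respiration showed no difference that held across scalings. By TMM 8 of 11 genes were called higher in liver (median 1.89), 0 held in all 4 scalings, and with library totals 0 were called higher in liver and 3 in lung. Cycs, or cytochrome c, had 2.49 ± 0.11 by TMM and 0.38 by library totals. Sdha, Sdhb and Ndufb8, subunits of complexes II and I, had 1.53 ± 0.14, 2.03 ± 0.09 and 1.38 ± 0.08 by TMM. With library totals their signs turned (−0.58, −0.09 and −0.74), though the value of Sdhb was then near 0 (edgeR quasi-likelihood test, adjusted p = 0.308).

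The epithelium of alveoli and airways was represented by 16 tested genes, 10 of them called higher in lung and 3 in liver (median −3.88). Lyz2, lysozyme of alveolar type II cells and macrophages (rn6 chr7:60335969-60341265), took 11.9% ± 0.71 of the lung counts. Its liver levels were 68.01, 74.3 and 95.998 CPM (lowest, median, highest) and its lung levels 60436, 52327, 53158, 50483 and 52147 CPM, a log2 fold change of −9.44 ± 0.19. Lamp3, a membrane protein of the lamellar bodies in which type II cells store surfactant (rn6 chr11:84972132-85000682), had 3680.2, 3086, 3670.5, 3145 and 3615 CPM in lung and 2 counts in all liver libraries together, so that the lung to liver ratio was 18471 (95% counting interval 5113 to 152525). Lcn2, an iron-sequestering defence protein, had 0.673 ± 0.777 CPM in liver and 1960.1 ± 159 in lung (−11.47 ± 0.25). Scnn1g, a subunit of the epithelial sodium channel that clears fluid from airspaces, had no count in liver and 21.5, 16.5, 15.3, 11.9 and 16.6 CPM in lung, at least 58.7-fold higher. Keratins divided within the list. Krt7 (−7.69 ± 0.19) and Krt19 (−4.94 ± 0.20) of duct and airway cells were called higher in lung, Krt8 was not called (0.74 ± 0.11), and Krt18, its partner in hepatocytes, was called higher in liver by TMM (2.12 ± 0.18) with 0.01 by library totals. Egfr was higher in liver (32.4 ± 11.4 and 2.10 ± 0.438 CPM, 3.94 ± 0.28).

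Endothelial genes were higher in lung for 17 of 21 and in liver for 0 (median −2.33), and all 17 held in all 4 scalings. Cav1, which forms caveolae in endothelium and type I cells, had 13.3, 23.3 and 36.5 CPM in liver and 2423, 2679.8, 2615, 3103 and 2456 CPM in lung (−6.84 ± 0.21). Vwf had 27.7 to 30.7 CPM in liver and 894 to 1106 CPM in lung. Acvrl1, a receptor of BMP9 on endothelium (−5.95 ± 0.17), Edn1, or endothelin-1 (−5.96 ± 0.21), and Apln, the peptide apelin (ratio 322 (95% counting interval 110.5 to 1565), lung over liver), were far higher in lung. Kdr, the VEGF receptor that liver sinusoids also carry, had 331, 462 and 543 CPM in liver and 1994, 1762, 1705, 1634 and 1786 CPM in lung, a smaller difference (−1.97 ± 0.11). Nos3 was called at −1.05 ± 0.38, but its libraries overlapped and the call was lost without liver library 67, 68 or 71 or lung library 52.

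Extracellular matrix and smooth muscle genes were called higher in lung for 32 of 38 (median −2.78). Postn, or periostin, a matrix protein of fibroblasts (rn6 chr2:143656793-143688088), had 0, 1.04 and 7.31 CPM in liver and 2975, 2379, 2309.9, 2685 and 2649 CPM in lung (−10.49 ± 0.30). Acta2 and Cnn1, contractile proteins of smooth muscle, had −3.39 ± 0.23 and −6.05 ± 0.44, and Pdgfb, a growth factor for mural cells, −5.86 ± 0.15. The 3 members called higher in liver were Fn1, or fibronectin, which hepatocytes secrete into plasma (1213, 1528 and 1641 CPM in liver, 130.4, 185, 147, 161 and 123 CPM in lung, 3.30 ± 0.13), Col18a1 (3.87 ± 0.33), the collagen that yields endostatin, and Loxl2, a cross-linking oxidase (1.15 ± 0.18 by TMM, reversed to −0.96 by library totals). Col3a1, a collagen of interstitial fibres, had 463 to 679 CPM in liver and 498 to 635 CPM in lung and was not called (0.03 ± 0.12 by TMM, −2.09 by library totals).

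Leukocyte genes went with lung for 33 of 40, with 0 called higher in liver (median −2.02). Ptprc, or CD45, carried by all leukocytes, had 2.44 to 7.21 CPM in liver and 19.8, 19.8, 21.5, 15.3 and 19.5 CPM in lung (−2.13 ± 0.21). Cd3d of T cells had −3.11 ± 0.34, Itgax of dendritic cells and alveolar macrophages −5.21 ± 0.39, and Cd74, the chaperone of MHC class II, −1.62 ± 0.16. Runx1, a factor of blood lineages, had −4.36 ± 0.22. Macrophage-associated Cd68, which Kupffer cells of liver share, had 38.7 to 62.7 CPM in liver and 81.9, 83.2, 81.7, 90.8 and 83.3 CPM in lung. Its libraries did not overlap, but it was short of 2-fold by TMM and so not called (−0.73 ± 0.12). With library totals all 40 tested leukocyte genes, Cd68 among them, were called higher in lung. Of 40 cytokine and chemokine genes 27 were called higher in lung and 3 in liver (median −1.49). Ccl11, the eosinophil attractant eotaxin, had 0.447 ± 0.832 CPM in liver and 115 ± 23.01 in lung (−7.83 ± 0.36). The receptors Cxcr4 (−4.57 ± 0.43) and Ccr7 (−3.50 ± 0.29) were higher in lung, whereas Cxcl12, the ligand of CXCR4, was higher in liver with 378, 427 and 487 CPM against 42.97, 50.3, 40.5, 49.7 and 50.03 CPM in lung (3.20 ± 0.10). Il1b differed least among the named cytokines (−1.17 ± 0.17).

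Growth factor and morphogen signalling had 18 of 35 genes higher in lung and 6 in liver by TMM (median −1.05), against 32.8% and 32.0% of all genes. With library totals these became 29 and 5, against 1378 and 350 of all 2003 genes. Bmp4, which patterns the airways, had 5.83 ± 2.09 CPM in liver and 178 ± 22.8 in lung (−4.92 ± 0.18), and Tgfb1 had −2.28 ± 0.21. The liver side held Inhba, which encodes the activin A subunit (352 ± 46.1 and 8.14 ± 3.48 CPM, 5.45 ± 0.23), and the prolactin receptor Prlr (7.67 ± 0.49), whose liver libraries spread from 81.6 to 365 CPM.

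Cell cycle genes were called higher in liver for 22 of 40 and in lung for 5 by TMM (median 1.05), against 32.0% and 32.8% of all genes. With library totals 11 were called higher in liver and 22 in lung. That shift toward lung was shared by all genes, with 350 and 1378 of 2003 called. The 11 genes higher in liver in all 4 scalings included genes of mitosis. Cdc20, the activator of the anaphase-promoting complex, had 204, 252 and 338 CPM in liver and 11.7, 8.93, 9.49, 8.90 and 10.2 CPM in lung (4.76 ± 0.17), and Ttk, a spindle checkpoint kinase, had 4.49 ± 0.30. Ccna2, or cyclin A2, had 116, 166 and 269.9 CPM in liver and 15.3, 12.6, 11.1, 14.8 and 11.8 CPM in lung (3.74 ± 0.20), and the low-count Ccnb1 (4.17 ± 0.33) and Cdk1 (4.06 ± 0.38) went the same way. On the lung side were the G1 cyclins Ccnd1 (15.2 ± 2.92 and 117 ± 16.8 CPM, −2.95 ± 0.14), Ccnd2 (−1.41 ± 0.38) and Ccnd3 (−1.52 ± 0.17) and the inhibitor Cdkn1b, or p27 (−1.39 ± 0.10).

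Of 50 stress genes 14 were called higher in liver and 15 in lung by TMM (median 0.06), shares near those of all genes (32.0% and 32.8%). With library totals 2 were called in liver and 37 in lung. Cat, the peroxisomal catalase, had 22911, 23789 and 36653 CPM in liver and 1303, 1079, 1124, 1138 and 1160.2 CPM in lung (4.52 ± 0.17), while Hspb1, a small heat shock protein of muscle and epithelium, had 30.02 to 56.5 CPM in liver and 645 to 909.9 CPM in lung (−4.22 ± 0.15). The NRF2 targets Hmox1 (−0.11 ± 0.10) and Nqo1 (0.18 ± 0.16) overlapped and were not called. Immediate early genes were called higher in lung for 11 of 17 and in liver for 1 (median −1.82), including Jun (−2.40 ± 0.19), Atf3 (−2.71 ± 0.35) and Maff (−4.24 ± 0.27). Egr1 was the member called higher in liver, with overlapping libraries (1.27 ± 0.26), and reversed with library totals (−0.84). Of 6 clock genes Arntl was higher in liver by TMM (1.31 ± 0.12, reversed to −0.81 with library totals) and Nr1d2, a repressor in the opposite phase, was higher in lung (−2.14 ± 0.12). Time of day was not given in the labels used here.

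Of 9 genes of ribosomes and translation 7 were not called by TMM (median 0.04), whereas 8 were called higher in lung with library totals (median −2.07). Rpl19 had 94.4 to 131 CPM in liver and 100.6, 111, 127, 112 and 108 CPM in lung (0.04 ± 0.10), and Rps6 had −0.05 ± 0.12. Hprt1, often used as a reference gene, was called higher in liver by TMM (1.19 ± 0.11) and reversed with library totals (−0.93), and Tubb5 was called higher in lung (−1.10 ± 0.11).

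**Figure D4:**
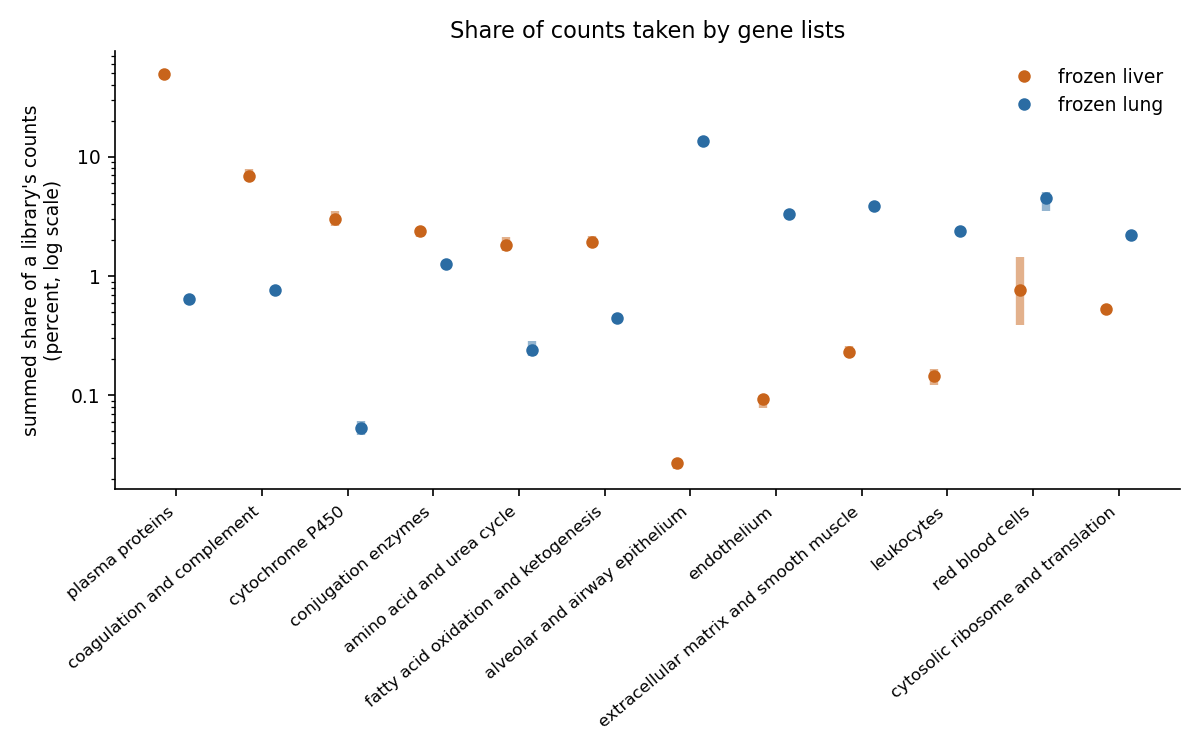
Percent of a library's deposited counts (y axis, log scale) summed over the counted members of 12 gene lists in frozen liver (orange, n = 6) and frozen lung (blue, n = 5), with points at the mean and bars from the lowest to the highest library. Plasma proteins took 46.1% to 52.7% in liver, and the red blood cell genes spread most among liver libraries.

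The labelled tissues were checked against markers. The 8 hepatocyte markers with counts summed to 509234 to 667179 CPM in the liver libraries and 43.6 to 108 CPM in the lung libraries, with Hnf4a at or near 0 in lung. Of 8 listed markers of alveolar type II cells the panel counted only Lamp3, with 0 to 1.04 CPM in liver and 3087 to 3680 CPM in lung. The other type II markers of the list, including the surfactant genes, had no counts. Of 3 club and ciliated cell markers only Cyp2f4 was counted. It went against the labels by TMM, at 40.85 to 55.98 CPM in liver and 3.5 to 26.46 CPM in lung. None of 4 markers of liver sinusoid and Kupffer cells had a count, so these cells were not represented among the markers. Bile duct markers Krt19 and Krt7 summed to 5.33 to 11.3 CPM in liver, and heart muscle markers to 0 in liver and 1.49 to 7.06 CPM in lung. Red blood cell markers were high in both tissues, at 7684 to 27828 CPM in liver and 15597 to 21855 CPM in lung. Hbb, the beta globin, had 7481 to 27058 CPM in liver and 15093 to 21250 CPM in lung and was not called (−0.41 ± 0.27), nor were Hba-a2 (−0.49 ± 0.24) and Alas2 (−0.42 ± 0.25). Hba-a3 had no count in liver and 572, 584, 646, 631 and 708 CPM in lung. This row may share reads with Hba-a2, though it was in none of the fixed-ratio pairs described below. Strain and tissue cannot be told apart for it. The part of blood in the leukocyte differences was not tested.

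Within a tissue the libraries differed in a few genes. The most variable liver gene of at least 100 CPM was LOC100912485, at 158, 599 and 1983 CPM (lowest, median, highest). Socs2, a growth hormone-induced inhibitor of JAK signalling, spread from 95.8 to 799.7 CPM in liver but only 383 to 475 CPM in lung, and the tissues overlapped. Onecut1, Zfp354a (139 to 737 CPM) and Slc25a30 (63.3 to 320.1 CPM) completed the 5 most variable in liver. In lung Fkbp5, a glucocorticoid-induced chaperone, had 99.1, 274, 268, 497 and 120.4 CPM, and Igh-6, the heavy chain of IgM, 667, 359, 1259, 1061 and 1440 CPM. Mlf1, LOC100361706 and Cdo1, the cysteine dioxygenase (100.6, 188, 212, 339 and 133 CPM), were the others. Library 50 was lowest of the 5 in Igh-6 and in Mlf1 (186, 63.8, 158, 168 and 214 CPM) and LOC100361706 (554, 217, 535, 427 and 587 CPM).

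Some rows could not be read as separate genes. Among 1722 genes with enough counts, 27 pairs (36 genes) kept a fixed ratio in every library where both were counted (SD of the log ratio under 0.003), such as Mt1m and Mt2A (2.82), Cycs and LOC679794 (1) and LOC100364500 and RT1-CE10 (6.89), so they may share reads and their levels are uncertain. The last pair belongs to the MHC class I region and was the pair with no count at all in frozen lung. LOC100364500 (rn6 chr20:2704148-2707121) had 766 to 1109 CPM in liver and no count in frozen lung. RT1-CE4 (rn6 chr20:4673658-4935888) and RT1-CE5, in the same region, had 3832, 3944, 3536, 3687 and 3289.7 and 1303, 1342, 1203, 1255 and 1119 CPM in lung and at most 2.38 and 0.595 CPM in liver. MHC class I genes differ between rat strains, and strain and tissue cannot be told apart here.

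The same tissue difference was measured in FR > FFPE libraries, which started from lysates of embedded tissue and not from RNA. In one fit over the 4 groups, the liver to lung difference changed between preparations for 721 of 2322 genes (31.1%). It moved toward liver in frozen tissue for 318 and toward lung for 403. The difference was smaller in size in FR > FFPE for 654 of the 721 and for 1648 of all 2322 genes. Whether frozen and FR > FFPE libraries came from the same animals is not given in the labels used here, so a change between preparations cannot be told apart from a difference between animals. Of 1296 genes called in frozen tissue and tested in FR > FFPE, 1016 were called there in the same direction and 1 in the opposite direction. FR > FFPE libraries detected more genes (2405 to 2514) than frozen ones (2134 to 2301) from 802684 to 3898088 counts.

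The 10 genes with the largest change came from both directions. In this fit, whose CPM are scaled over 4 groups, Amy1a, an amylase, had 2281 ± 148 CPM in frozen and 815 ± 282 in FR > FFPE liver, and 0 in frozen against 32.1 ± 5.89 CPM in FR > FFPE lung (change in the log2 fold change 10.80 ± 0.55). Urad, a urate-degrading enzyme, gave 0 and 30.5 ± 9.36 CPM in the lung groups (10.71 ± 0.51). LOC100912485 had 11.43 ± 1.01. On the lung side Lamp3 had 5133 ± 509 CPM in frozen and 685 ± 365 in FR > FFPE lung, and 0.232 ± 0.568 and 5.92 ± 2.48 CPM in liver (−7.30 ± 0.82). Grm3 (−9.03 ± 0.86), Fam183b (−8.26 ± 1.88), Ccl11 (−7.21 ± 0.53) and Dynlrb2 (−6.99 ± 0.62), of which Fam183b and Dynlrb2 are known from ciliated cells, moved the same way. In most of these the low tissue had counts near 0 when frozen and 5 CPM or more after fixation, and log2 values against a group at 0 depend on the prior count of the fit and are no bounds.

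The MHC pair also changed. LOC100364500 had 1209 ± 161 CPM in frozen and 2152 ± 281 in FR > FFPE liver, 0 in frozen lung and 2355 ± 622 CPM in FR > FFPE lung (log2 fold change −0.13 in FR > FFPE). RT1-CE10 followed it (14.67 ± 0.45 and 11.89 ± 0.45). RT1-CE4 was higher in lung in both preparations, though by less after fixation (−3.9988 ± 0.59), at 5452 ± 370 CPM in frozen and 2334 ± 884 in FR > FFPE lung and 9.17 ± 4.60 in FR > FFPE liver. All 6 FR > FFPE lung libraries had LOC100364500 at 1419 to 3233 CPM, and the labels give the WKY strain for frozen and FR > FFPE lung alike.

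**Figure D5:**
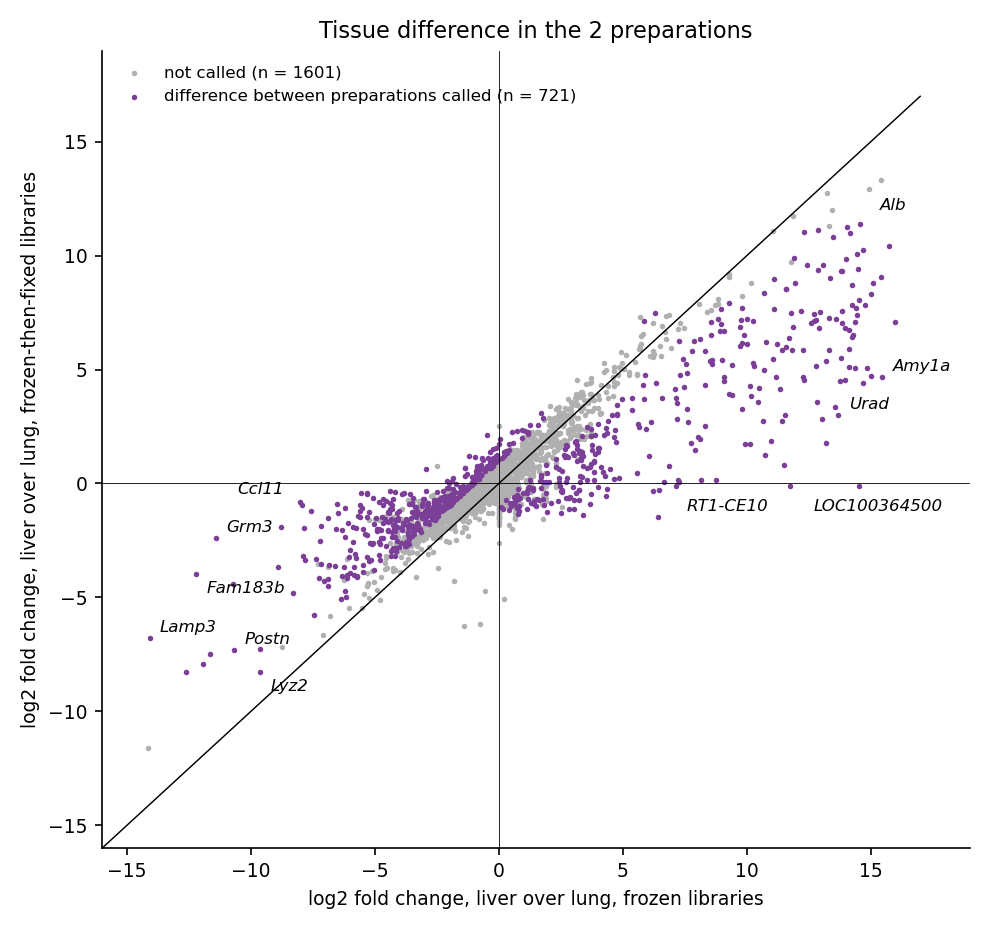
Log2 fold change of liver over lung in FR > FFPE libraries (y axis) against frozen libraries (x axis) for 2322 genes of the fit over 4 groups, with the line of equal values. Purple points are the 721 genes called for a change between preparations, most of which lie nearer to 0 on the y axis, and LOC100364500 and RT1-CE10 lie at −0.13 there.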

How the data were processed

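TempO-Seq libraries of rat liver and lung were deposited as one table per tissue. The values are expected counts per gene that the authors made on rn6, of which 89.98% of those above 0 were whole within 0.001. They were rounded here. How the authors counted reads is not given in the sources used here, and for tools listed in the submitters' processing notes (STAR 2.5.3a, CASAVA 1.8.2, Partek) the methods state roles in total RNA-seq of mouse liver, but none for TempO-Seq. The tables were joined by symbol.

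Liver and lung were compared in edgeR 4.0.16 (R 4.3.3) by quasi-likelihood F-tests, after edgeR's filter on low counts, with TMM scaling and Benjamini-Hochberg adjustment over all genes tested. Preparations were compared as an interaction over 4 groups. Scaled library sizes were 1500024 to 2080894 in liver and 4384032 to 5709686 in lung. At these sizes 1 CPM rests on few counts, fewer in liver than in lung, and is imprecise. A fold against a tissue without counts is a bound set by 3 counts over that tissue, and with 1 to 3 counts a pooled ratio with an exact Poisson interval, which covers counting error only. No replicate pair was alike (smallest chi-square per degree of freedom 6.55). The test was tested on simulated data of 1948 genes and recovered 193 of 200 4-fold changes (96.5%). Both tissues were simulated from the same mean profile, with as many genes raised as lowered. The simulation therefore says nothing about scaling between tissues as unlike as these.

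The members and lists were chosen with earlier results of these data known. Named genes are the first 4 counted members of each list, its 3 largest calls in each direction, the largest and smallest differences, the largest shares and variability, all members of gene families and the largest interactions, with other list members as examples. Some genes are not reported here. A reference genome of the rat was not used here, so no sequences are shown. Alternatives changed the scaling, filter, tool, threshold and libraries. Those that divided counts by their common factor were added after seeing the data.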

Additional observations from a re-analysis of the deposited data

Results flagged for a closer look

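Single libraries stood apart from the rest of their tissue in 17 of 278 groups of values screened, and chance flags about 1 in 20. In liver, library 68 was high in F2 (38880 CPM, others 28680 to 32450) and low in Nr1i2 (104, others 138 to 158). Library 70 was high in Pklr (254, others 78.5 to 109) and Sdha (520, others 287 to 367). Library 72 was high in Ttk (53.5, others 20.1 to 31.2).

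In lung, library 49 was high in Lyz2 (60440, others 50480 to 53160) and Jun (53.2, others 43.4 to 46.1) and low in Cycs and LOC679794, which share 1 ratio (32.3 each, others 36.5 to 37.9). Library 50 was low in Cd55 (489, others 555 to 567), Sqle (114, others 172 to 191), Rps6 (3546, others 4689 to 5120) and Zfp354a (59.4, others 69.97 to 73.2). Library 52 was low in Pparg (137, others 147 to 149) and Itgax (11.4, others 18.9 to 21.5) and high in Cd68 (90.8, others 81.7 to 83.3) and Socs2 (475, others 383 to 408).

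The tissue difference depended on the preparation most for 10 genes, by the interaction test of edgeR. Frozen minus frozen-then-fixed log2 differences were 14.67 for LOC100364500, 11.89 for RT1-CE10, 11.43 for LOC100912485, 10.80 for Amy1a and 10.71 for Urad, and −9.03 for Grm3, −8.26 for Fam183b, −7.30 for Lamp3, −7.21 for Ccl11 and −6.99 for Dynlrb2. Values against a group without counts depend on the prior count.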

How the results depend on the processing

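The counts of genes called between the tissues were recomputed under 12 alternatives, and the change between preparations under 7 of them. A minimum of 4-fold left 882 genes called in all, 403 of them higher in lung. With library totals without TMM 350 genes were called higher in liver and 1378 in lung, with totals that left out genes over 1% of any library 1201 were called higher in lung, and with counts in multiples divided by their factor, totals gave 425 and 1190, against 637 and 636 with TMM. Without each library in turn the calls were 1273 to 1314 in all, 628 to 648 higher in liver, 643 to 671 higher in lung and 682 to 756 for the change between preparations. Of 183 named genes called, 150 kept direction and call under every alternative in which they were tested. Of 204 named genes, 166 were tested with lung library 54 and 202 with thinned counts. Direction reversed for 12 named genes, in each case with a scaling to totals. A reversal here is a change of sign, whether or not the reversed difference passed the test. With library totals, Sdhb and Pros1 did not pass (edgeR quasi-likelihood test, adjusted p = 0.308 and 0.0672). With library totals the log2 fold changes were −0.81 for Arntl, −0.72 for Cyp2f4, −0.84 for Egr1, −0.93 for Hprt1, −0.39 for Igfbp3, −0.96 for Loxl2, −0.74 for Ndufb8, −0.24 for Pros1, −0.58 for Sdha, −0.086 for Sdhb, −1.12 for Slc25a30 and −0.79 for Sqle. With totals without genes over 1% of any library they were −0.059 for Arntl, −0.094 for Egr1, −0.18 for Hprt1, −0.22 for Loxl2, −0.35 for Slc25a30 and −0.047 for Sqle. None of these passed the same edgeR test (lowest adjusted p = 0.111, for Hprt1). With counts in multiples divided by their factor and scaled to totals they were −0.14 for Arntl, −0.048 for Cyp2f4, −0.17 for Egr1, −0.26 for Hprt1, −0.29 for Loxl2, −0.0695 for Ndufb8, −0.44 for Slc25a30 and −0.13 for Sqle. Of these only Hprt1 passed the edgeR test (adjusted p = 0.0274), and Igfbp3, Pros1, Sdha and Sdhb kept their direction. The first of these scalings moved the median of all genes to −2.20 and the second to −1.45. Library 54 of lung, when included, left 1063 genes called (578 in liver, 485 in lung). No paired analysis was possible because liver and lung came from different strains, and so from different rats. Low counts limit genes near 1 CPM, and a count of 0 in a tissue sets a bound and no level.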
